A study of Homo sapiens with 9 samples.

Results

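The proteasome is the barrel-shaped protease that degrades ubiquitin-tagged proteins, and its subunits, and several of its assembly chaperones, are encoded by genes whose symbols begin with PSM. The 48 genes described here are the protein-coding rows of the OVCAR4 count table whose symbol is PSM, a letter from A to G and a number, out of 58735 genes in the table. They comprise 5 subunits known to be induced by interferon (PSMB8, PSMB9, PSMB10, PSME1 and PSME2) and 43 others, called constitutive here. The constitutive group holds 8 alpha ring subunits (PSMA), 8 beta ring subunits (PSMB), 6 ATPases of the regulatory particle (PSMC), 14 PSMD genes, the activators PSME3 and PSME4, the inhibitor PSMF1 and 4 chaperones of core particle assembly (PSMG). Most PSMD genes encode non-ATPase subunits of the regulatory particle, whereas PSMD5, PSMD9 and PSMD10 encode chaperones of its assembly.

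OVCAR4 is an established human cell line of high-grade serous ovarian carcinoma, labelled WT for genotype. The study asked how knockdown of MPZL3, a membrane protein related to myelin protein zero, alters the transcriptome. RNA-seq was performed on 9 libraries, with 3 biological replicates each of cells transduced with scramble shRNA (scr control), shMPZL3 #1 or shMPZL3 #2, and all cells were selected with puromycin for 3 days. Both shRNAs are compared with the same 3 scr control libraries, so the comparisons are not independent of each other.

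In most cells the core particle carries the catalytic beta subunits PSMB5, PSMB6 and PSMB7. Interferon gamma induces the alternative catalytic subunits PSMB8, PSMB9 and PSMB10, which are built into new core particles in place of PSMB5, PSMB6 and PSMB7, respectively, to form the immunoproteasome. PSME1 and PSME2 form an activator ring that caps the core particle, and the peptides produced are carried by TAP1 and TAP2 into the endoplasmic reticulum for loading onto MHC class I. In tumor cells the immunoproteasome is best known for its part in antigen presentation.

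The total was 15040102 to 27835841 counts per library, of which the 48 members held 0.459% to 0.591%. MPZL3, the target, ranged from 130 to 144 counts with shMPZL3 #1, from 281 to 375 with shMPZL3 #2 and from 403 to 648 in scr control, and was higher with shMPZL3 #2 than with shMPZL3 #1 (log2 difference 1.28; adjusted p = 5.7e-05). Of 9 markers of serous carcinoma epithelium, 7 (PAX8, MUC16, EPCAM, KRT7, KRT8, KRT18 and CDH1) had 3381 to 75675 counts per library, whereas MSLN had 46 to 100 and WT1 3 to 13. Of 7 leukocyte markers, FCGR3A had 0 counts in every library, LYZ, NKG7 and CD3E had at most 1, 2 and 4, and PTPRC had 4 to 26.

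The promoters of the induced subunits are shown first, because interferon-stimulated genes are known to be bound by IRF factors at the interferon-stimulated response element (ISRE). RefSeq promoter windows on GRCh38.p14, from 250 bases before to 50 bases after a start, were found for 42 of the 48 members. The ISRE was searched on both strands as GAAANNGAAA and was present in 4 of the 5 induced genes. It was present in 3 of the 37 constitutive genes with a window (PSMA4, PSMB4 and PSMG4) and in 4.38% of all 27305 genes with a window. Each sequence runs 5′ to 3′ along the gene's own strand, with the match in capitals, and matches on the opposite strand read as the reverse complement.
PSMB8, chr6:32844034-32844059, minus strand: tctgtggcTTTCGCTTTCacttcctc
PSMB10, chr16:67936854-67936879, minus strand: gtaaaggcGAAAGCGAAAgcaggaag
PSME1, chr14:24136191-24136216, plus strand: cctaccgcTTTCGCTTTCccttcgcg
PSME2, chr14:24146621-24146646, minus strand: tggggagtGAAAGCGAAAgcccgggc
TAP1, the neighbor of PSMB9, chr6:32853821-32853846, minus strand: gcggccgcTTTCGATTTCgctttccc

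The match lay at bases -4 to 6 from the start in PSMB8 (counted without a base 0), at -21 to -12 in PSMB10, at 6 to 15 in PSME1 and at -28 to -19 in PSME2. PSMB9 had no match in its only window. By their RefSeq starts, 488 bases apart on chromosome 6, PSMB9 and TAP1 are transcribed away from each other. Their windows share 13 bases, and the TAP1 window held a pair of overlapping matches, of which the one farther from the TAP1 start is shown. The gamma-activated site (GAS, TTCNNNGAA) was found in 1 of the 5 induced genes (PSMB8) and 7 of the 37 constitutive genes, against 9.38% of all genes. The antioxidant response element (ARE, TGACNNNGC), which is related to the site of the proteasome gene regulator NFE2L1, was found in 3 of 5 induced and 12 of 37 constitutive genes, against 16.1% of all genes. No matches of different motifs shared bases in a member's window. These matches are letters in a window and not measured binding.

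In scr control cells, the induced catalytic subunits were far below the 7 constitutive beta ring subunits that passed the filter on low counts. Levels are compared between genes as CPM per kb (CPM, counts relative to the TMM-scaled library size, divided by the summed exon length of the gene in kilobases). That length takes in every annotated exon, so it can exceed the transcript present, and levels of different genes compare only roughly. It was 6996 bases for PSMA4 and 5724 for PSMA5 against 1765 for PSMB5 and 1448 for PSMB6, but 1750 for PSMA7 and 4843 for PSMB2. The median was 65.6 CPM per kb over those 7 beta ring subunits, 39.7 over the ATPases, 18.0 over the PSMD genes and 13.8 over the alpha ring. The gaps between these medians rest in part on the annotated lengths. The most abundant member was PSMA7, an alpha ring subunit, at 205 ± 7.88 CPM per kb, followed by PSMB4 at 135 ± 6.79 and PSMD2, a large scaffold subunit of the regulatory particle, at 116 ± 2.30 (SD, n = 3 each). PSMB8 stood at 8.62 ± 1.82, PSMB10 at 5.09 ± 0.874 and PSMB9 at 3.89 ± 1.66 CPM per kb (SD, n = 3 each). Their counterparts PSMB5, PSMB7 and PSMB6 stood at 65.2 ± 1.13, 65.6 ± 4.26 and 56.3 ± 1.70 CPM per kb. The activator subunits PSME1 and PSME2, at 62.4 ± 2.45 and 39.7 ± 3.95, were in the range of the constitutive subunits.

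**Figure D1:**
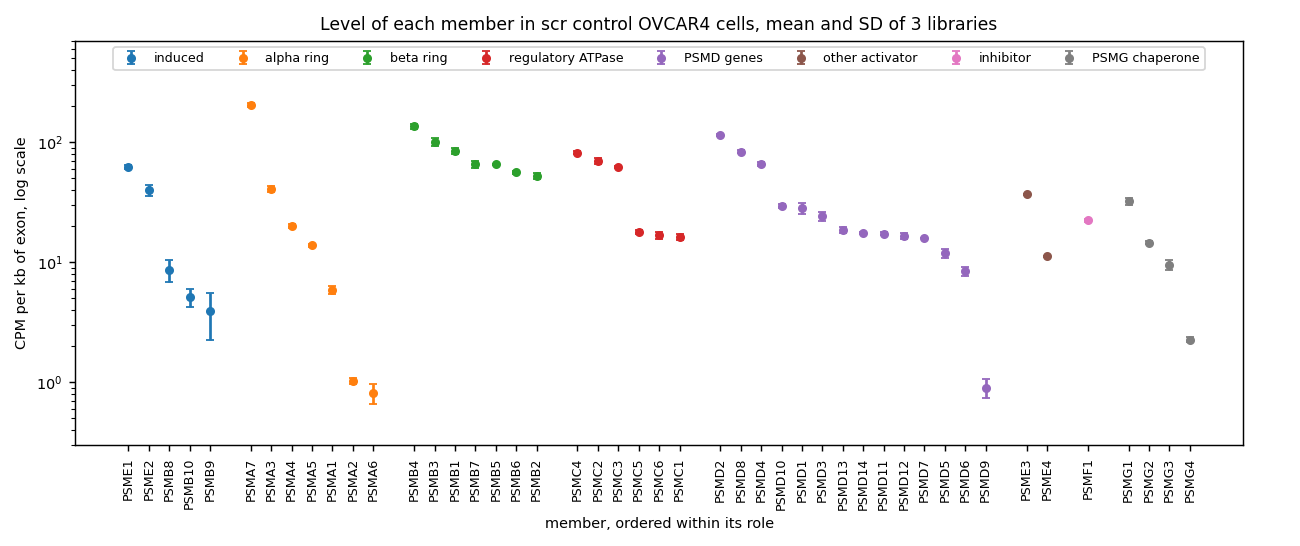
CPM per kb of exon (log scale) of the 46 members that passed the filter, in scr control OVCAR4 cells, ordered within each role; points are means and bars the SD of 3 libraries. PSME1 and PSME2 lie among the constitutive subunits, whereas PSMB8, PSMB10 and PSMB9 lie below the 7 beta ring subunits shown.

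Some members with a very low level shared much of their coding sequence with other annotated genes. PSMA6 stood at 0.812, PSMD9 at 0.902 and PSMA2 at 1.03 CPM per kb, although the subunits of the alpha ring are present in equal number in the assembled particle. In GENCODE release 29, 97.1% of the coding bases of PSMA2, 88.6% of PSMA1, 70.4% of PSMA6, 58.7% of PSMD9 and 58.3% of PSMB10 were also covered by exons of another gene. The libraries do not keep the strand, and how reads on shared bases were counted is not given in the sources used here. The counts of these 5 members are therefore uncertain, and 35 of the 48 members shared no coding base. The thymus subunit PSMB11 had 1 count in all 9 libraries together, and PSMA8, the alpha subunit of testis, had 0. They were not tested.

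Knockdown of MPZL3 was accompanied by higher transcript levels of 4 of the 5 induced subunits, with both shRNAs, while 0 of the 41 constitutive members tested were called higher in any comparison with scr control. In the 6 knockdown libraries PSMB9 was 3.05-fold, PSMB8 2.09-fold, PSMB10 1.62-fold and PSME1 1.33-fold the level in the 3 scr control libraries (edgeR quasi-likelihood test with Benjamini-Hochberg adjustment over 16928 genes). The same 4 were higher with shMPZL3 #1 alone and with shMPZL3 #2 alone. Of all genes tested, 9.36% were higher in the grouped comparison, 16.8% with shMPZL3 #1, 9.36% with shMPZL3 #2, and 6.52% with both shRNAs. These 4 members were also above every scr control library in all 6 knockdown libraries, as were 11.8% of all genes tested.

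PSMB8 (ENSG00000204264) encodes the chymotrypsin-like subunit of the immunoproteasome and lies in the MHC class II region of chromosome 6, from 32840717 to 32844703 on the minus strand of GRCh38. Its level was 19.6, 29.4 and 28.5 CPM in scr control, 44.4, 58.3 and 59.5 CPM with shMPZL3 #1, and 55.0, 54.3 and 52.3 CPM with shMPZL3 #2. The lowest knockdown library lay well above the highest scr control library, and the libraries of the 2 shRNAs overlapped. The grouped log2 fold change was 1.06 ± 0.14 (SE; 95% interval 0.76 to 1.36; adjusted p = 0.000642). The log2 fold change was 1.06 with shMPZL3 #1 and 1.06 with shMPZL3 #2.

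PSMB9 (ENSG00000240065) encodes the immunoproteasome subunit that takes the position of PSMB6 and overlaps PSMB8 in position, from 32844136 to 32859585 on the plus strand. Its annotated span begins upstream of its RefSeq promoter window, which runs from 32853942 to 32854241. Its level was 6.09, 15.3 and 14.5 CPM in scr control, 32.2, 35.1 and 50.7 CPM with shMPZL3 #1, and 33.1, 38.0 and 30.7 CPM with shMPZL3 #2. Scr control replicate 1 was the lowest library and shMPZL3 #1 replicate 3 the highest, and the knockdown libraries did not overlap the control libraries. The grouped log2 fold change was 1.61 ± 0.25 (SE; 95% interval 1.07 to 2.15; adjusted p = 0.00156). Without scr control replicate 1 it was 1.29 (adjusted p = 0.00553), and over 16 alternative settings the adjusted p was 7.46e-14 to 0.00641. It was 1.70 with shMPZL3 #1 and 1.49 with shMPZL3 #2. Over the 9 libraries PSMB9 had the largest coefficient of variation of all tested members, 48.8%, followed by PSMB8 with 33.5%, whereas the activator PSME4 had the smallest, 6.07%.

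PSMB10 (ENSG00000205220), the immunoproteasome counterpart of the trypsin-like subunit, lies on chromosome 16 from 67934502 to 67937087 on the minus strand. It was measured at 7.70, 9.69 and 10.9 CPM in scr control, 13.9, 12.1 and 16.3 CPM with shMPZL3 #1, and 16.7, 14.6 and 18.2 CPM with shMPZL3 #2. The gap between the highest control and the lowest knockdown library was small relative to the spread within each group. The grouped log2 fold change was 0.70 ± 0.16 (SE; 95% interval 0.35 to 1.05; adjusted p = 0.0137). It was no longer past the threshold without scr control replicate 1 (log2 fold change 0.57; adjusted p = 0.104) or replicate 2 (0.72; adjusted p = 0.0580), and the adjusted p over 16 alternative settings was 0.000938 to 0.104. With shMPZL3 #1 alone it missed the threshold when scr control replicate 1 (adjusted p = 0.0819) or shMPZL3 #1 replicate 3 (adjusted p = 0.0717) was left out. The gene AC040162.1, which shares 644 exon bases with PSMB10 on the same strand, had 183 counts in all libraries against 2540 for PSMB10.

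The activator subunits PSME1 (ENSG00000092010) and PSME2 (ENSG00000100911) are neighbors on chromosome 14, from 24136158 to 24138967 on the plus strand and from 24143362 to 24147570 on the minus strand. PSME1 was measured at 106, 113 and 114 CPM in scr control, 140, 129 and 141 CPM with shMPZL3 #1, and 157, 154 and 162 CPM with shMPZL3 #2. All knockdown libraries lay above the control libraries, and those with shMPZL3 #2 lay above those with shMPZL3 #1. The grouped log2 fold change of PSME1 was 0.41 ± 0.10 (SE; 95% interval 0.20 to 0.62; adjusted p = 0.0157). It missed the threshold when scr control replicate 1, 2 or 3 was left out (adjusted p = 0.110, 0.0708 and 0.0597), with log2 fold changes of 0.37, 0.42 and 0.42, and the range over 16 alternative settings was 0.00113 to 0.110. With shMPZL3 #1 alone it was likewise lost without each of them (adjusted p = 0.0899, 0.0582 and 0.0502). PSME2, its partner in the same ring, was measured at 127, 146 and 154 CPM in scr control, 168, 145 and 160 CPM with shMPZL3 #1, and 166, 158 and 178 CPM with shMPZL3 #2. The groups overlapped. PSME2 did not pass the test in any comparison, with a grouped log2 fold change of 0.19 ± 0.10 (SE; 95% interval -0.02 to 0.40; adjusted p = 0.204).

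By the 2-sided exact permutation test of log2 CPM, p was 0.0119 for each of PSMB8, PSMB9, PSMB10 and PSME1, the smallest that 6 libraries against 3 can give, and 0.0476 for PSME2. None of the 5 induced subunits differed between shMPZL3 #2 and shMPZL3 #1 by edgeR's test or by DESeq2, and 1 of them, PSME1, had an unadjusted p under 0.05. The interval of that difference was -0.30 to 0.29 on the log2 scale for PSMB8, -0.69 to 0.27 for PSMB9, -0.11 to 0.56 for PSMB10, 0.02 to 0.40 for PSME1 and -0.13 to 0.30 for PSME2. PSMB8 and PSMB9 share 139 exon bases on opposite strands, and the antisense gene PSMB8-AS1, which overlaps both, had 209 counts in all libraries against 8506 for PSMB8 and 5473 for PSMB9.

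Because leukocytes carry much immunoproteasome, the 7 leukocyte markers were set beside the induced subunits. Summed over the list, they reached 2.07 to 2.53 CPM in the control libraries, 2.10 to 3.05 CPM with shMPZL3 #1 and 2.86 to 4.69 CPM with shMPZL3 #2. Of the 3 that passed the filter, CD14, an endotoxin co-receptor, was higher in the grouped comparison (3 to 12 counts in scr control and 19 to 34 in knockdown; log2 fold change 1.60 ± 0.42, SE; adjusted p = 0.0237). Fibroblast markers summed to 15.9 to 20.2 CPM in the control libraries, 35.7 to 51.4 CPM with shMPZL3 #1 and 30.6 to 33.4 CPM with shMPZL3 #2, with COL1A1 and LUM higher and DCN at 0 counts throughout. The part of other cells in the result was not tested, and in bulk RNA the number of cells of a type and the RNA per cell cannot be told apart.

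**Figure D2:**
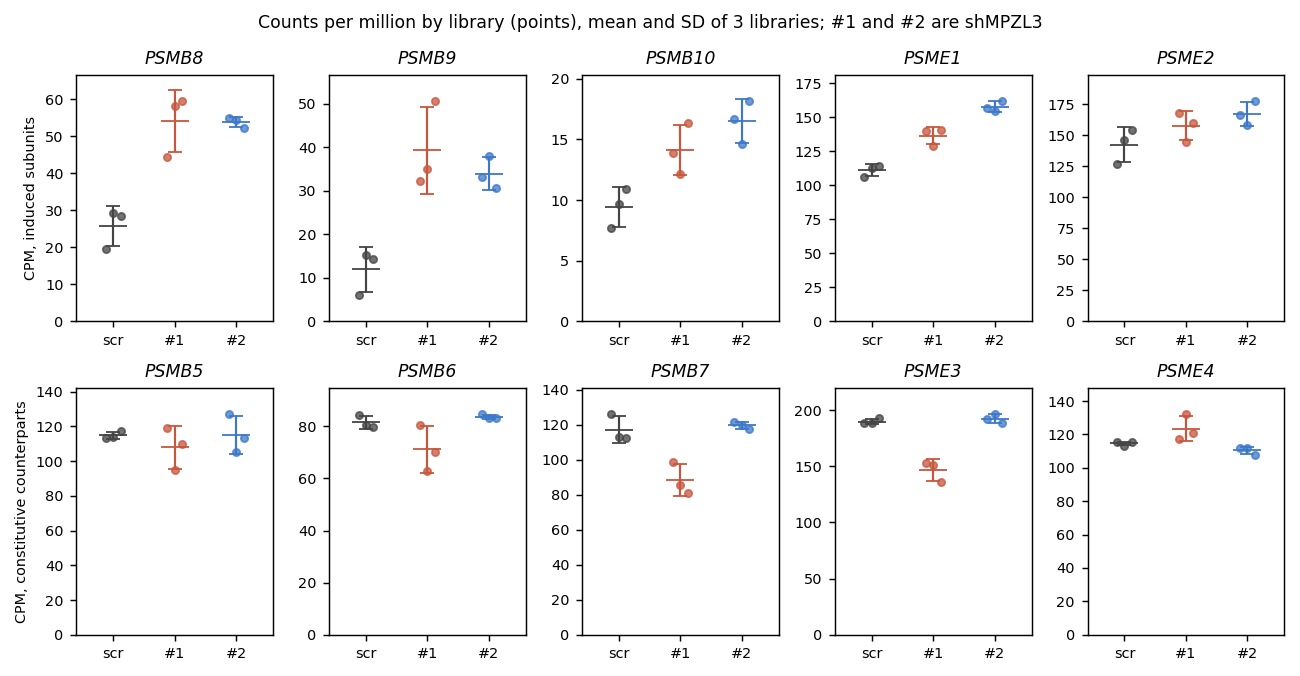
CPM in each library (points) with the mean and SD of 3 libraries, for the induced subunits (top) and constitutive counterparts (bottom) in scr control, shMPZL3 #1 and shMPZL3 #2. All 6 knockdown libraries exceed the 3 scr control libraries for PSMB8, PSMB9, PSMB10 and PSME1, and the 3 libraries with shMPZL3 #1 are below all others for PSMB7 and PSME3.

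None of the constitutive counterparts was called higher in any comparison with scr control. PSMB5, the chymotrypsin-like subunit replaced by PSMB8, was measured at 114, 114 and 117 CPM in scr control, 119, 94.7 and 110 CPM with shMPZL3 #1, and 127, 105 and 113 CPM with shMPZL3 #2. PSMB6, the caspase-like subunit replaced by PSMB9, was measured at 84.3, 80.5 and 79.7 CPM in scr control, 80.5, 62.8 and 70.1 CPM with shMPZL3 #1, and 84.6, 83.2 and 83.2 CPM with shMPZL3 #2. Both overlapped between groups and neither passed the test in any comparison, with grouped log2 fold changes of -0.04 (95% interval -0.26 to 0.17) and -0.07 (-0.31 to 0.16).

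PSMB7, the trypsin-like subunit replaced by PSMB10, and PSME3, which forms the nuclear activator ring, were lower with shMPZL3 #1 and not detectably changed with shMPZL3 #2. PSMB7 was measured at 126, 113 and 112 CPM in scr control, 98.7, 85.7 and 80.7 CPM with shMPZL3 #1, and 122, 120 and 118 CPM with shMPZL3 #2. PSME3 was measured at 188, 188 and 193 CPM in scr control, 153, 151 and 136 CPM with shMPZL3 #1, and 192, 196 and 188 CPM with shMPZL3 #2. All 3 libraries with shMPZL3 #1 were below all others for both genes. The log2 fold change with shMPZL3 #1 was -0.41 ± 0.10 for PSMB7 and -0.37 ± 0.09 for PSME3 (SE; adjusted p = 0.00489 and 0.00447), and the direct test between the shRNAs gave 0.44 and 0.39 (adjusted p = 0.00673 and 0.00720). PSME4, a large nuclear activator, was measured at 115, 113 and 115 CPM in scr control, 117, 132 and 121 CPM with shMPZL3 #1, and 112, 112 and 108 CPM with shMPZL3 #2, and passed no test.

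At each of the 3 catalytic positions, the transcript ratio of the induced to the constitutive subunit was higher in the knockdown libraries. The ratio of PSMB8 to PSMB5, in CPM per kb, stood at 0.132 ± 0.0269 in scr control, at 0.300 ± 0.0731 for shMPZL3 #1 and at 0.277 ± 0.0246 for shMPZL3 #2 (SD, n = 3 each). The ratio of PSMB9 to PSMB6 was 0.0698 ± 0.0310, 0.264 ± 0.0761 and 0.191 ± 0.0214, respectively. For PSMB10 to PSMB7 it was 0.0784 ± 0.0177, 0.156 ± 0.0338 and 0.133 ± 0.0157. All 6 knockdown libraries exceeded the 3 scr control libraries in each ratio, and the geometric mean in knockdown was 2.19-fold, 3.46-fold and 1.85-fold that in scr control. The constitutive subunit nevertheless remained the larger part of each pair in every library. PSMB8 made up 11.6% of the summed level of PSMB8 and PSMB5 in the control libraries, 22.9% for shMPZL3 #1 and 21.7% for shMPZL3 #2. For PSMB9 with PSMB6 these shares were 6.47%, 20.7% and 16.04%, and for PSMB10 with PSMB7 they were 7.26%, 13.4% and 11.7%. The size of each ratio and share depends on the annotated exon lengths. These were 2997 bases for PSMB8 and 1765 for PSMB5, 3072 for PSMB9 and 1448 for PSMB6, and 1853 for PSMB10 and 1787 for PSMB7. The fold differences of the ratios between groups do not depend on them. For PSMB10 the counts are also uncertain, because exons of another gene covered 58.3% of its coding bases, against 0% for PSMB7.

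The ratio of the mean of PSME1 and PSME2 to PSME3 was 1.39 ± 0.0751 in the control libraries, 2.13 ± 0.213 for shMPZL3 #1 and 1.82 ± 0.103 for shMPZL3 #2 (SD, n = 3 each), a 1.42-fold difference with no overlap. With shMPZL3 #1 the denominators PSME3 and PSMB7 were themselves lower. The ratio of PSME1 to PSME2 was 1.58 ± 0.0991, 1.75 ± 0.0658 and 1.90 ± 0.0645, and overlapped between control and knockdown. Ratios are described without a test.

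**Figure D3:**
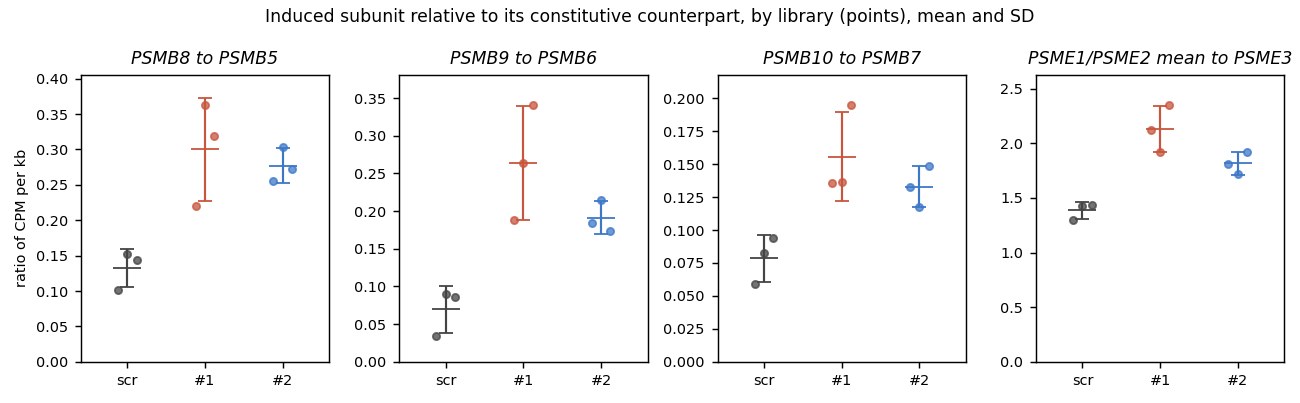
Ratio of CPM per kb of each induced subunit to its constitutive counterpart in each library (points), with the mean and SD of 3 libraries, in scr control, shMPZL3 #1 and shMPZL3 #2. Every knockdown library lies above every scr control library in all 4 ratios, and the catalytic ratios reach at most 0.362.

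The constitutive subunits as a group lay slightly lower with shMPZL3 #1 and near the control level with shMPZL3 #2. Their summed level was 5640, 5361 and 5291 CPM in scr control, 4813, 4299 and 4091 CPM with shMPZL3 #1, and 5203, 5122 and 5205 CPM with shMPZL3 #2. The 6 knockdown libraries were below the control libraries, and the libraries with shMPZL3 #1 were below those with shMPZL3 #2. The summed level of the 5 induced subunits was higher in the 6 knockdown libraries than in the control libraries, and the libraries of the 2 shRNAs overlapped, with 266, 313 and 322 CPM in scr control, 399, 380 and 427 CPM with shMPZL3 #1, and 428, 419 and 441 CPM with shMPZL3 #2.

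With shMPZL3 #1, 25 of the 41 constitutive members tested were lower and 0 were higher, whereas 15.3% of all genes tested were lower. None of the 41 was higher at an unadjusted p under 0.05. DESeq2 called 26 lower. The median log2 fold change of the 41 was -0.32, against 0.00867 over all genes, and the 25 that fell ranged from -0.82 to -0.28. The lower members were spread over the complex, with 4 of 7 alpha ring subunits, 4 of 7 beta ring subunits, 4 of 6 ATPases, 9 of 14 PSMD genes, 3 of 4 PSMG chaperones and PSME3. The inhibitor PSMF1, at 0.02, was not among them. The count was 15 without scr control replicate 1 and 13 without shMPZL3 #1 replicate 3.

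With shMPZL3 #2, 0 of the 41 were lower by edgeR's test, whereas 5.8% of all genes tested were lower. DESeq2 called 1 lower, and 4 were lower at an unadjusted p under 0.05, for which no share of all genes is given. None of the 41 was higher, and 1, PSMG4, was at an unadjusted p under 0.05. The count of 0 became 1 without shMPZL3 #1 replicate 2 and 2 without shMPZL3 #2 replicate 2. It was 3 with the replicate number added to the fit as a block. Their median log2 fold change was -0.09, against 0.00343 over all genes.

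The difference between the shRNAs was tested directly. In shMPZL3 #2 relative to shMPZL3 #1, 7 of the 41 constitutive members were higher and 0 lower, while 7.56% of all genes tested were higher and 7.56% lower. The median log2 difference was 0.24 against 0.00790 over all genes. Of the 41 differences 37 were positive, as were 8629 of the 16928 over all genes tested. No constitutive member was lower at an unadjusted p under 0.05, and 25 were higher, without a share of all genes at that level to set beside them. All 7 called were also lower with shMPZL3 #1 than in scr control. They were the beta ring subunits PSMB2 and PSMB7, the ATPases PSMC1 and PSMC3, the scaffold PSMD2, the activator PSME3 and the chaperone PSMG4. Both calls use the same shMPZL3 #1 libraries, so low values there enter both. The share of all genes with both calls is not given. No constitutive member was called lower with both shRNAs, as were 3.53% of all genes tested. The count of 7 was 4 without scr control replicate 2 or 3 or shMPZL3 #2 replicate 3, 3 without shMPZL3 #1 replicate 3 or shMPZL3 #2 replicate 1, and 17 without shMPZL3 #1 replicate 1. It was 9 by DESeq2 and 21 with the replicate number added to the fit as a block.

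In the grouped comparison 3 of the 41 constitutive members were lower and 0 higher, when 6.4% of all genes tested were lower. In this fit the share was near that of all genes. None was higher at an unadjusted p under 0.05, 13 were lower at that level, and DESeq2 called 5 lower. For these counts no share of all genes is given. The count of 3 became 0 without scr control replicate 1, 2 or 3, 1 without shMPZL3 #1 replicate 1 or 3 or shMPZL3 #2 replicate 1, and 7 without shMPZL3 #2 replicate 2. It was 14 when the mean of the 2 shRNAs was tested in a fit of 3 groups. No share of all genes is given for that fit, so the nearness to all genes holds for the main fit only. The median log2 fold change was -0.20 against 0.02 over all genes. Of the 41 values 37 were negative, as were 8210 of the 16928 over all genes tested. All 6 knockdown libraries were below the 3 scr control libraries for 11 of the 41, whereas 11% of all genes tested were.

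The 3 that fell were PSMA2, an alpha ring subunit, PSMD12, a scaffold subunit of the regulatory particle lid, and PSMG2, a chaperone of alpha ring assembly. PSMG2 was measured at 48.7, 50.1 and 47.1 CPM in scr control, 36.9, 34.4 and 31.3 CPM with shMPZL3 #1, and 39.6, 39.9 and 40.6 CPM with shMPZL3 #2. Both shRNA groups were below the control group without overlap, and shMPZL3 #1 was the lower. Its grouped log2 fold change was -0.39 ± 0.10 (SE; adjusted p = 0.0231; exact permutation p = 0.0119). PSMD12 was measured at 94.2, 87.3 and 84.9 CPM in scr control, 64.4, 74.0 and 55.7 CPM with shMPZL3 #1, and 63.3, 82.7 and 65.5 CPM with shMPZL3 #2, a log2 fold change of -0.39 ± 0.12 (SE; adjusted p = 0.0364). PSMA2 had only 55 to 126 counts per library and shared most of its coding bases with other genes, at a log2 fold change of -0.68 ± 0.21 (SE; adjusted p = 0.0418). Each of the 3 calls was lost without any 1 of scr control replicates 1, 2 and 3, with an adjusted p of 0.0980, 0.106 and 0.0615 for PSMG2, 0.160, 0.108 and 0.0759 for PSMD12, and 0.152, 0.144 and 0.0884 for PSMA2. PSMD12 was also lost without shMPZL3 #1 replicate 1 (adjusted p = 0.0770) or 3 (0.0517) and without shMPZL3 #2 replicate 1 (0.0518) or 3 (0.0659). PSMA2 was also lost without shMPZL3 #1 replicate 1, 2 or 3 (adjusted p = 0.0586, 0.0639 and 0.0652) and without shMPZL3 #2 replicate 1 or 2 (0.0537 each). Over all 16 alternative settings PSMG2 passed in 13 (adjusted p 0.00276 to 0.106), PSMD12 in 9 (0.00981 to 0.160) and PSMA2 in 6 (0.0151 to 0.152).

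**Figure D4:**
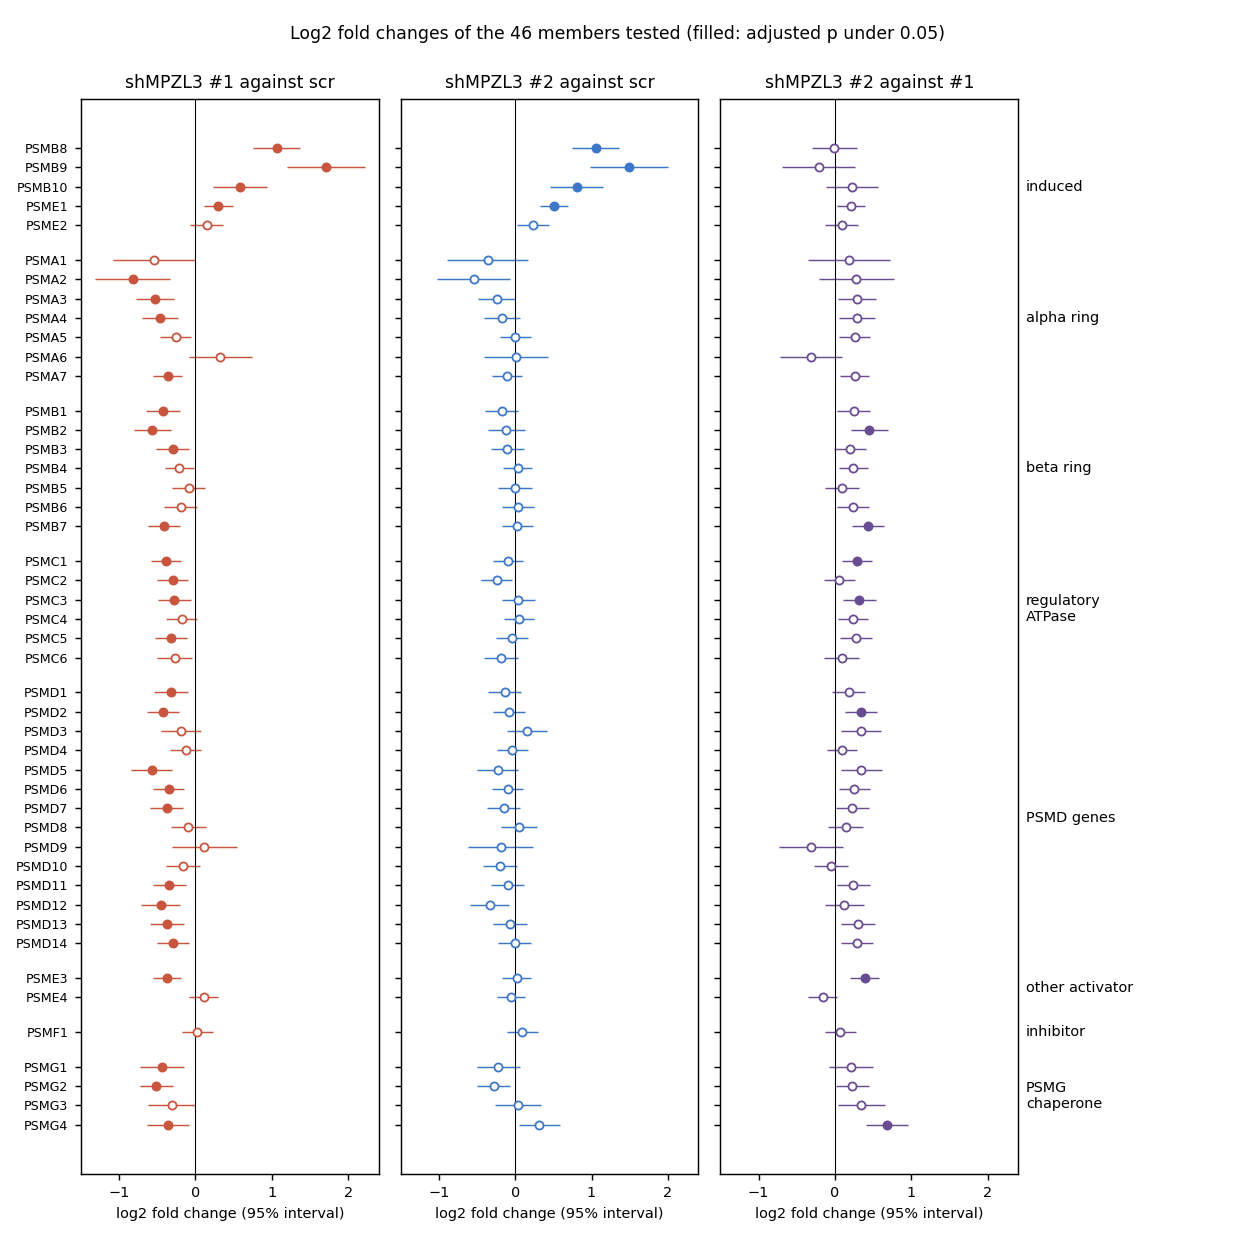
Log2 fold changes with 95% intervals of the 46 members tested, by role, for shMPZL3 #1 against scr control, shMPZL3 #2 against scr control and shMPZL3 #2 against shMPZL3 #1; filled points have an adjusted p under 0.05. The induced subunits PSMB8, PSMB9, PSMB10 and PSME1 lie to the right of 0 with both shRNAs, and 25 constitutive members lie to the left of 0 with shMPZL3 #1.

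Peptides made by the proteasome are transported, trimmed and loaded onto MHC class I by other proteins. Of 10 genes with these roles, 6 rose and 0 fell in the grouped comparison, against 9.36% of all genes tested higher and 6.4% lower. The same 6 rose with each shRNA, against 6.52% of all genes tested. TAP1, the peptide transporter subunit that shares its promoter region with PSMB9, was measured at 19.5, 37.5 and 37.5 CPM in scr control, 109, 132 and 197 CPM with shMPZL3 #1, and 118, 129 and 131 CPM with shMPZL3 #2. The groups did not overlap, and scr control replicate 1 and shMPZL3 #1 replicate 3 were the lowest and highest library, as they were for PSMB9. The grouped log2 fold change was 2.11 ± 0.23 for TAP1 and 0.87 ± 0.14 for TAP2, the other transporter subunit (SE; adjusted p = 0.000231 and 0.00205). The others that rose were TAPBP and TAPBPL, which edit the peptides bound to MHC class I (log2 fold change 1.62 and 0.98), B2M, its light chain (0.77), and ERAP1, a peptide-trimming protease (0.33). ERAP2, CALR, CANX and PDIA3 did not pass the test.

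Of 8 regulators known to act on the induced subunits, 5 were higher and 0 lower in the grouped comparison, where 9.36% of all genes tested were higher. With shMPZL3 #1 alone 6 were higher, against 16.8% of all genes tested, and with shMPZL3 #2 alone 4, against 9.36%. IRF1, a transcription factor that binds the ISRE, was measured at 27.7, 39.0 and 37.0 CPM in scr control, 58.1, 61.7 and 72.6 CPM with shMPZL3 #1, and 58.3, 61.7 and 68.4 CPM with shMPZL3 #2. All knockdown libraries were above the control libraries, with a grouped log2 fold change of 0.87 ± 0.12 (SE; adjusted p = 0.000948). NLRC5, the transactivator of MHC class I genes, rose by 0.87 ± 0.17 (SE; adjusted p = 0.00588). STAT2, IFNGR1 and JAK1 were the other 3 in the grouped comparison, which IFNGR2, IRF9 and JAK2 did not pass.

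Other proteins assemble or assist the proteasome without carrying a PSM symbol. Of 16 such genes, 0 were higher and 2 lower in the grouped comparison, in which 9.36% of all genes tested were higher and 6.4% lower. The 2 were TXNL1, a thioredoxin of the regulatory particle, and UCHL5, a deubiquitinase (log2 fold change -0.35 and -0.42; adjusted p = 0.0437 and 0.04996, the latter just inside the threshold). POMP, the maturation chaperone that immunoproteasome assembly depends on, had a log2 fold change of -0.20 (95% interval -0.40 to -0.0019; adjusted p = 0.155). The ubiquitin receptor ADRM1 had 0.12 and the small lid subunit SEM1 -0.18, and neither passed the test. Of 6 genes of the NFE2L1 route, by which cells restore proteasome gene expression when the protease is inhibited, DDI2, the protease that activates NFE2L1, was lower (log2 fold change -0.38; adjusted p = 0.0400) and 0 were higher. NFE2L1 itself had 0.20 in the grouped comparison (adjusted p = 0.197) and 0.29 with shMPZL3 #2 (adjusted p = 0.0436). These lists were written with earlier results of these libraries known, and their counts are given as a description.

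**Figure D5:**
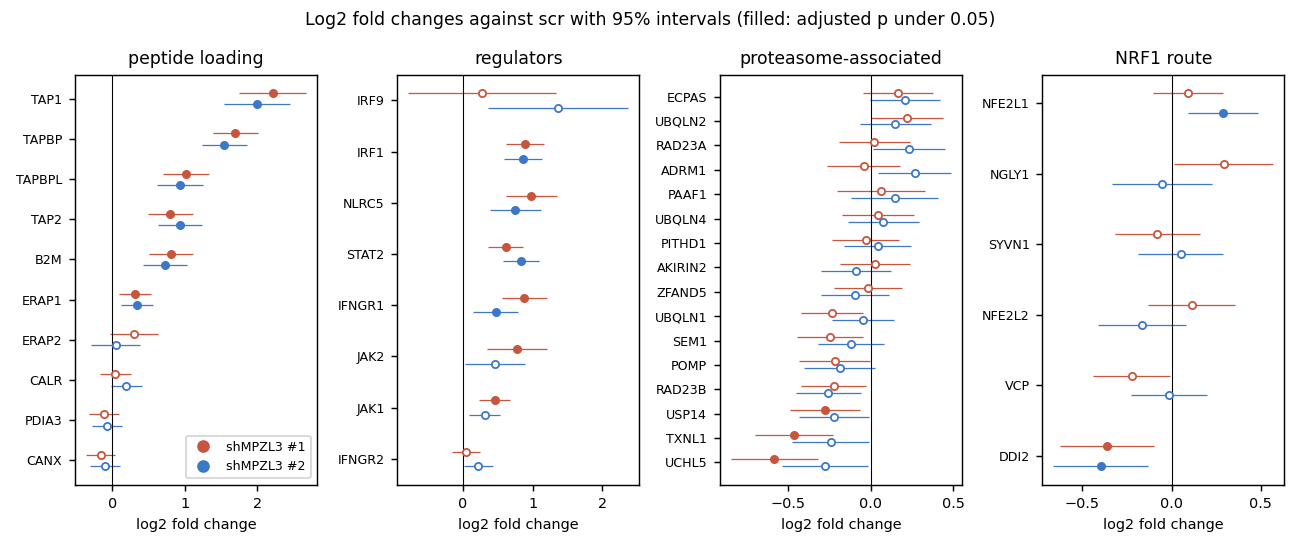
Log2 fold changes against scr control with 95% intervals of the genes of 4 lists with shMPZL3 #1 and shMPZL3 #2; filled points have an adjusted p under 0.05. The peptide loading genes TAP1, TAPBP, TAPBPL, TAP2, B2M and ERAP1 lie to the right of 0 with both shRNAs, whereas the proteasome-associated genes scatter around 0.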

How the data were processed

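RNA-seq counts of 9 OVCAR4 libraries were analysed, grouped by their labels as scr control, shMPZL3 #1 and shMPZL3 #2 (n = 3 each). The authors enriched poly-A RNA, made non-directional libraries, aligned the reads with HISAT2 2.0.5 to hg38 and counted reads with featureCounts 1.5.0-p3 (per the submitters' processing notes). The deposited values are raw counts per gene, not normalized and not pooled, beside each gene's exon length. The annotation and the treatment of shared bases are not given in the sources used here. All 48 members matched GENCODE release 29 (Ensembl release 94) in identifier, name and position.

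Genes were filtered with filterByExpr (16928 kept, 46 members among them), scaled by TMM and tested with edgeR 4.0.16 (2-sided quasi-likelihood test, Benjamini-Hochberg adjustment, threshold 0.05) in R 4.3.3. The grouped comparison set 6 knockdown against 3 scr control libraries, and each shRNA was compared in a fit of 3 groups. Log2 CPM values had 2 as prior count, and single members were also compared by exact permutation. The edgeR step was also tested on simulated data. DESeq2 1.42.0, other normalizations and filters, the replicate number as a block and leaving out each library were the alternatives. Shares of all genes are given for the main edgeR test at the adjusted threshold and for libraries without overlap. They are not given for unadjusted p or for the alternatives. Counting intervals are not given, because replicate spread exceeds counting noise (chi-square per gene 3.16 to 23.7 between replicates). Python 3.11.15 was used for motifs, ratios and figures.

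Named genes are the 5 induced subunits with PSMB5, PSMB6, PSMB7, PSME3 and PSME4, other members called in the grouped comparison or with both shRNAs in 1 direction (up to 5 in each direction), members that failed the filter, and TAP1, TAP2, IRF1, NLRC5, NFE2L1, POMP, ADRM1, SEM1 and MPZL3. 1 further gene of the rule and of the regulator list is not reported here. Other genes were named after their values were seen. The members and lists were chosen with earlier results of these data known.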

Additional observations from a re-analysis of the deposited data

Results flagged for a closer look

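The effect against scr control differed between the shRNAs, by the direct test of shMPZL3 #2 against shMPZL3 #1 (edgeR quasi-likelihood test with Benjamini-Hochberg adjustment over all genes tested), for 7 of the 41 constitutive members tested and for 0 of the 5 induced subunits. All 7 were higher with shMPZL3 #2, as were 7.56% of all genes tested, while 7.56% were lower. The count was 3 to 17 when 1 library was left out, 9 by DESeq2 and 21 with the replicate number as a block. The log2 difference was 0.68 for PSMG4 (adjusted p = 0.00199), 0.45 for PSMB2 (0.0148), 0.44 for PSMB7 (0.00673), 0.39 for PSME3 (0.00720), 0.34 for PSMD2 (0.0306), 0.32 for PSMC3 (0.0435) and 0.29 for PSMC1 (0.0435). PSMG4, a chaperone of core particle assembly, was measured at 23.5, 22.4 and 24.6 CPM in scr control, 19.8, 15.3 and 19.5 CPM with shMPZL3 #1, and 29.4, 26.8 and 31.4 CPM with shMPZL3 #2. The libraries with shMPZL3 #1 lay below and those with shMPZL3 #2 above the control libraries. PSMB2 was measured at 270, 240 and 248.9 CPM in scr control, 202, 170 and 140 CPM with shMPZL3 #1, and 236, 234 and 229 CPM with shMPZL3 #2, so that the libraries with shMPZL3 #1 were below all others. PSMG4 shares 13.3% of its exon bases with SLC22A23 and PSMC1 shares 75.8% with NRDE2, both on the opposite strand, and these libraries do not keep the strand.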

How the results depend on the processing

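PSMB8 and PSMB9 were called with each shRNA and in the grouped comparison under every alternative tried, and the ratios, and the median of the constitutive members, kept their direction. Leaving out 1 library gave 2 to 4 members higher and 0 to 7 lower in the grouped comparison, 2 to 4 and 13 to 28 with shMPZL3 #1, and 4 and 0 to 2 with shMPZL3 #2. Between the shRNAs it gave 3 to 17 higher. Grouped counts were 2 higher and 0 lower at an adjusted p under 0.01, 5 lower by DESeq2 and 14 lower with the mean of the 2 shRNAs. With shMPZL3 #2, DESeq2 called 1 member lower. Same-numbered libraries correlated at -0.00143 to 0.218 in their deviations from the group means, with 3 of 9 pairs over 0.1. Between the 2 shRNAs these correlations were 0.137, 0.218 and 0.0966, against -0.147 to 0.00376 for libraries of different number. Of the 9 libraries, 8 correlated best with their own number. The labels name no shared batch, and these values do not settle whether the numbers pair the samples. The main tests did not pair them. With the replicate number as a block, 4 members were higher and 2 lower in the grouped comparison, 28 lower with shMPZL3 #1, 3 lower with shMPZL3 #2, and 21 higher between the shRNAs.

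Values near 0 that passed no test changed sign. Between the shRNAs, PSMB8 (-0.01 as reported) was 0.0097 with the block and -0.14 to 0.069 without 1 library, PSMB9 -0.35 to 0.014 and PSMD12 -0.0028 to 0.23. With shMPZL3 #2 the log2 fold change of PSMB5 was -0.0025 by DESeq2, -0.0025 by RLE and -0.0051 with the block, and -0.089 to 0.058 without 1 library, and that of PSMB7 was -0.0080 to 0.077. Grouped, PSME4 was -0.0072 to 0.071. The causes were not tested.

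The 3 replicates a group limit the precision more than depth. Low counts limit PSMA2, PSMA6, PSMD9 and PSMB10, and PSMB9 had only 94 counts in scr control replicate 1. Shared bases limit PSMA1, PSMA2, PSMA6, PSMD9, PSMB10 and PSMC1, and transcript ratios say nothing of assembled protein.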
